A study of Mus musculus with 8 samples.

Results

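The fibroblast growth factor (FGF) genes of the E15.5 mouse fetal brain were examined after prenatal stress. The set was chosen by gene symbol and holds the protein-coding Fgf genes and the receptors Fgfr1 to Fgfr4 and Fgfrl1. It also holds Spry1, Spry2, Spry4, the Spred family, Dusp6, Il17rd and the ETS factors Etv1, Etv4 and Etv5. Spry3 fits the symbol rule but was not among the rows matched. The set comprised 38 genes of 54752 rows in the count files, namely 18 secreted ligands, 4 intracellular FGF homologous factors (FHF), 5 receptors, 8 feedback inhibitors and 3 ETS factors. The rule itself reads no measured value. All brains were labelled wild type C57BL/6 (C57BL/6Slac in the study's methods), and each gave a library of oligo(dT)-captured mRNA. The control group held 4 brains (F36 and F37, both female, with the males M30 and M31) from dams without stress. The stress group held 4 brains (F34 and F35, both female, with the males M28 and M29) from dams kept under chronic unpredictable mild stress (CUMS), a changing schedule of mild stressors through early and middle gestation until the day before collection. The study's sample sheet gives a single litter for all control brains and a single other litter for all stressed brains, so an effect of litter and one of condition cannot be told apart, and brains of a litter are not independent dams. The study's methods describe whole brains while its sample sheet has an entry that may mean 1 side of the brain, a difference that could not be resolved here.

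FGF ligands bind receptor tyrosine kinases together with heparan sulfate, and the activated receptors signal through Ras and the kinases MEK and ERK. ERK activity raises the ETS factors Etv1, Etv4 and Etv5 and a layer of inhibitors, among them Sprouty and Spred proteins, the ERK phosphatase Dusp6 and the membrane protein Il17rd (Sef), which dampen the same pathway. In the developing brain, FGFs are known for patterning the telencephalon and the midbrain-hindbrain boundary and for maintaining radial glia, the neural stem cells. The FHF proteins Fgf11 to Fgf14 are not secreted and are best known as partners of voltage-gated sodium channels in neurons.

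The totals ranged from 25320109 to 29105710 counts per library, and the 38 genes together took between 0.086% and 0.0901% of them. Neuronal markers were abundant in each brain, with 9 genes summing to between 5879 and 6256 CPM (counts per 1000000). Markers of meningeal fibroblasts (7 genes) summed to 17.1 to 30.03 CPM in control and to 22.0 to 64.7 CPM in stress, the highest being in the stressed male M28. Levels of 1 gene are given as CPM on totals scaled by the trimmed mean of M-values (TMM), and levels of different genes are compared as RPKM (CPM per kilobase of exon) on the same totals.

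Of the 38 genes, 32 had enough counts to be tested and 4 of these 32 passed an adjusted p of 0.05 between stress and control, which is 12.5%. Fgfr3 and Fgf15 were higher in the stressed brains, whereas Spred3 and Fgf12 were lower. Over all genes 13.8% were called (2458 of 17865), so the share of FGF genes called was near that of the transcriptome. By another measure, the 4 control and the 4 stressed values did not overlap for 4 of the 32 genes (12.5%), which were Fgfr3 and Fgf15 on the higher side and Spred3 and Fgf5 on the lower side, against 16.4% of all genes tested. The median log2 fold change (Log2FC, stress vs. control) was -0.08 over the 32 genes and 0.00 over all genes tested. The Log2FC was below 0 for 23 of the 32 genes, against 49.4% of all genes tested, a description with no test. The changes were small, with a median absolute Log2FC of 0.11 in the FGF genes and 0.08 in all genes tested.

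**Figure D1:**
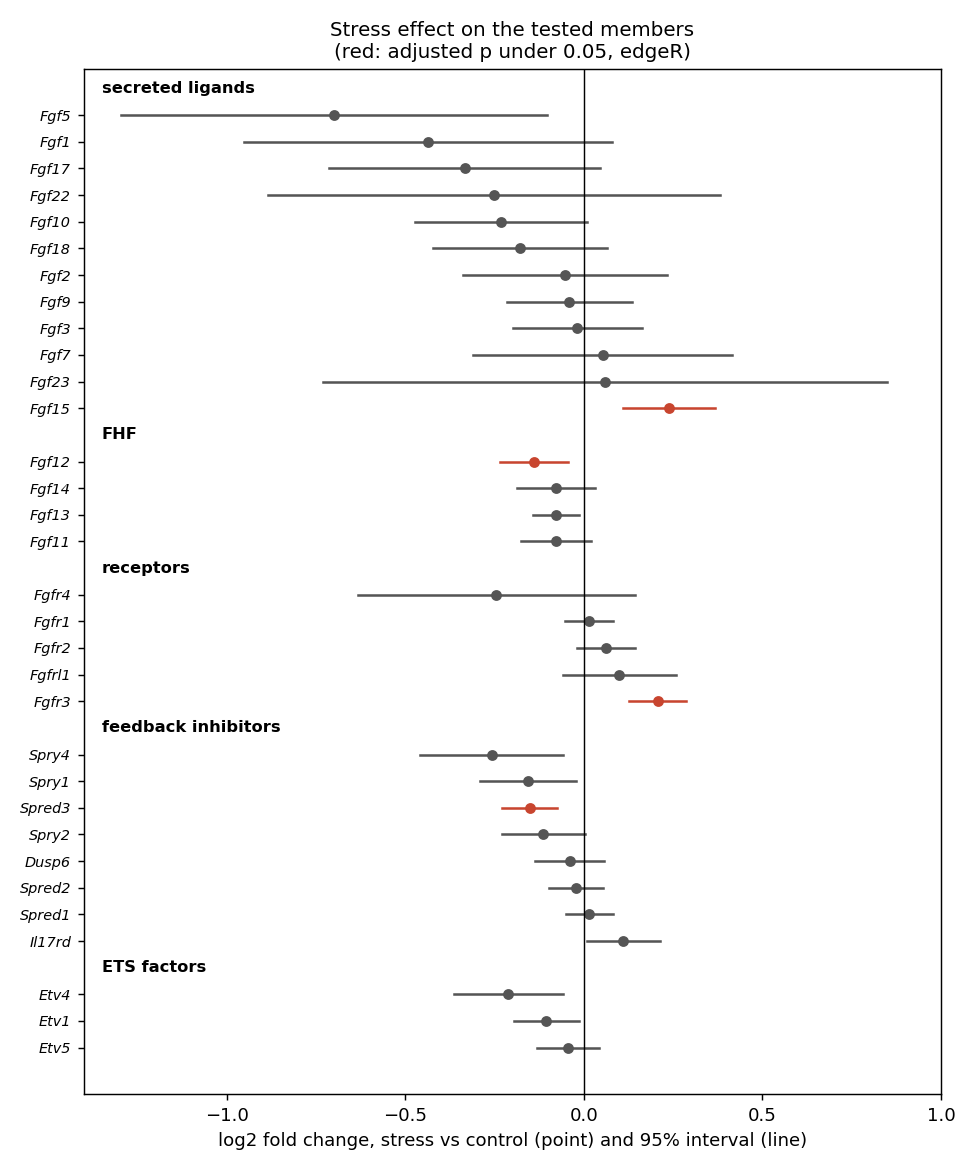
Log2 fold change of the 32 tested FGF pathway genes (horizontal axis, stress vs. control, points) with 95% intervals (lines), grouped by role, with the genes at an adjusted p under 0.05 in red. The intervals of Fgfr3 and Fgf15 lie above 0 and those of Spred3 and Fgf12 below it, and the low-count ligands Fgf5, Fgf1, Fgf22 and Fgf23 have the widest lines. The intervals are not adjusted for the number of genes. Among genes not called, that of Il17rd lies above 0 and those of Etv1, Etv4, Spry1, Spry4, Fgf5 and Fgf13 below it.

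Among the secreted ligands, Fgf15 had the highest level per length. Fgf15, the mouse counterpart of human FGF19, is expressed in the fetal neural tube and acts as a gut hormone in the adult. Its control level was 3.92 ± 0.23 RPKM (SD, n = 4), followed by Fgf18 at 2.78 ± 0.27, Fgf3 at 2.55 ± 0.07 and Fgf9 at 1.71 ± 0.11 RPKM. The ranges of Fgf18 and Fgf3 overlapped, while those of Fgf15 and of Fgf9 stood apart from their neighbours in this order. Fgf17 (0.917 ± 0.191 RPKM) and Fgf10 (0.766 ± 0.036 RPKM) came next with overlapping ranges, and Fgf7 and Fgf2 lay between 0.411 and 0.465 RPKM on average. Fgf5, Fgf8, Fgf22, Fgf23 and Fgf1 had control means from 0.169 to 0.250 RPKM, and each overlapped the next in order. Fgf18, Fgf17 and Fgf8 belong to 1 subfamily known from the midbrain-hindbrain organizer, of which Fgf8 was the lowest here.

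The ligands at the bottom were near or below detection. Fgf4 and Fgf6 had 0 counts in all 8 libraries, and a count of 0 allows up to 3 counts, or 0.103 to 0.119 CPM depending on the library (counting error only). Fgf16 and Fgf20 had 0 to 2 counts per library, and Fgf21, an endocrine FGF of the liver, had 1 count in each of 2 control brains. Fgf8 had between 4 and 14 counts in every library and was too low for the filter. These 6 genes entered no test.

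**Figure D2:**
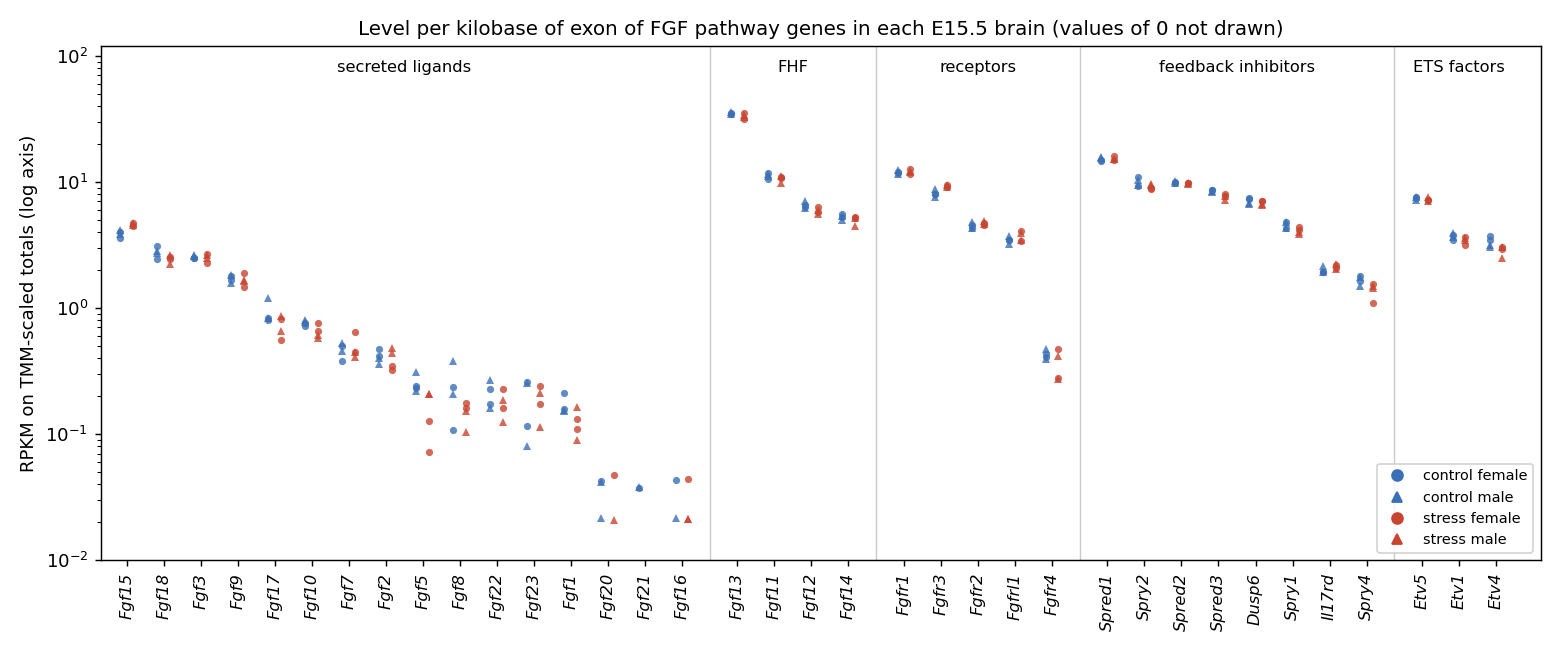
Level of each FGF pathway gene per kilobase of exon (RPKM, log axis) in each of the 8 brains, control in blue and stress in red, females as circles and males as triangles, grouped by role and ordered by control mean, with values of 0 not drawn. Fgf13 is the highest at 35.2 RPKM in control, and the secreted ligands run from Fgf15 at 3.92 RPKM down to genes with 0 to 2 counts.

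Fgf15 was the only secreted ligand of 12 tested that was called. It had 12.3, 11.1, 12.7 and 11.9 CPM in the control brains F36, F37, M30 and M31. In the stressed brains F34, F35, M28 and M29 it had 14.4, 13.7, 14.4 and 14.0 CPM. The 4 stressed brains were all above the highest control brain. The means were 11.99 ± 0.69 and 14.1 ± 0.33 CPM (SD, n = 4 each), with a Log2FC of 0.24 (SE 0.06, 95% interval 0.11 to 0.37, adjusted p = 0.0109, edgeR's quasi-likelihood test). The call was lost without the control brain F37 (Log2FC 0.20, adjusted p = 0.0619) and was kept when any other brain was left out.

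As a share of the summed RPKM of all secreted ligands, Fgf15 took 26.0% to 27.5% in control and 31.3% to 32.8% in stress, while the sum itself ran from 13.9 to 15.1 RPKM in control and from 14.0 to 14.6 RPKM in stress. Fgf15 (mm10 chromosome 7, 144896531 to 144900953, plus strand) lies beside Fgf4 and Fgf3 on the same strand. Fgf4 had no counts, and Fgf3 had a Log2FC of -0.02 (95% interval -0.20 to 0.16). Of the exon bases of Fgf15, 25.7% were shared with 2 antisense genes, Gm26793 and Gm39119. The counting did not use strand, and by its default, pairs in the shared bases were left uncounted. Gm26793 had 62 to 82 counts in control and 85 to 101 in stress (Log2FC 0.32, SE 0.12, adjusted p = 0.0786, edgeR's quasi-likelihood test). Gm39119 had 4 to 12 and 8 to 14 counts (0.78, SE 0.35, adjusted p = 0.149, same test). The part of either gene in the Fgf15 result was not tested.

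The other 11 tested ligands were not called. Fgf5 had the largest Log2FC of them, -0.70 (SE 0.29, 95% interval -1.30 to -0.10, adjusted p = 0.114), at levels of 0.544 to 0.773 CPM in control and 0.181 to 0.523 CPM in stress. These CPM ranges did not overlap, whereas the unscaled counts met at 15, with 15 to 22 per library in control and 5 to 15 in stress. Fgf10, a ligand of the receptor Fgfr2, was at 3.52 ± 0.16 CPM in control and 3.01 ± 0.37 CPM in stress (Log2FC -0.23, 95% interval -0.47 to 0.01). For Fgf18 the interval ran from -0.42 to 0.06, for Fgf17 from -0.71 to 0.05, and for Fgf9, a ligand made by neurons, from -0.22 to 0.13.

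Among the FHF genes, Fgf13 had the highest level per length of all 38 genes, at 35.2 ± 0.68 RPKM in control, followed by Fgf11 at 11.3 ± 0.55, Fgf12 at 6.52 ± 0.37 and Fgf14 at 5.29 ± 0.24 RPKM, with no overlap between neighbours. Fgf13, which also binds microtubules in growing neurons, took 59.4% to 61.7% of the summed FHF level in control and 59.1% to 62.9% in stress. All 4 had a Log2FC below 0, between -0.14 and -0.08, and 1 of the 4 was called.

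The called member was Fgf12. It had 40.3, 38.9, 38.8 and 43.7 CPM in control F36, F37, M30 and M31, and 35.7, 39.3, 37.3 and 34.7 CPM in stress F34, F35, M28 and M29. The groups overlapped, since the stressed female F35 was above 2 control brains. The Log2FC was -0.14 (SE 0.05, adjusted p = 0.0455, edgeR's quasi-likelihood test). This call was kept in only 2 of 8 fits that left out a brain, in which the adjusted p ran from 0.0136 to 0.227, and was lost with DESeq2 (0.104) and without the sex covariate (0.0827). Fgf13 had a Log2FC of -0.08 (SE 0.03, adjusted p = 0.0982), with 139 to 145 CPM in control and 128 to 141 CPM in stress. Fgf11 and Fgf14 were not called (95% intervals -0.18 to 0.02 and -0.19 to 0.03). Beside these values, 5 of 9 neuronal markers were called lower and 0 higher by edgeR, and 3 lower and 0 higher by DESeq2. Over all genes, edgeR called 13.8% and DESeq2 9.29%, in either direction. The sum of the 9 markers was 6095 to 6256 CPM in control and 5879 to 6092 CPM in stress. In bulk tissue, fewer neurons and less RNA per neuron cannot be told apart, and the part of either in the FHF values was not tested.

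Of the 4 Fgf12 promoter windows held by RefSeq (GRCm38.p6, 250 bases before to 50 after a start), the window nearest the annotated start at the 5′ end of the gene is shown because it is the farthest upstream. It spans chr16:28753194-28753493 on the minus strand and lies upstream of the annotated gene, whose 5′ end is at 28753068. The other Fgf12 windows hold no CCAAT box. In the window shown, the capitals mark the CCAAT box on either strand, a binding site of the factor NF-Y.
Fgf12: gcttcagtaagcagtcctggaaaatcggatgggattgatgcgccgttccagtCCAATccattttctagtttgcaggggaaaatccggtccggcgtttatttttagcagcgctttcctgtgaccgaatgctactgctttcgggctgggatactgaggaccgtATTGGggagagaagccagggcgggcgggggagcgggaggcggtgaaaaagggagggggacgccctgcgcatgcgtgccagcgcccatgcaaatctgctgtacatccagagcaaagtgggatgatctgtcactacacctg

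Among the receptors, Fgfr1 had the highest control level at 11.96 ± 0.31 RPKM. Fgfr3 followed at 8.07 ± 0.49, Fgfr2 at 4.50 ± 0.22, Fgfrl1 at 3.47 ± 0.21 and Fgfr4 at 0.427 ± 0.033 RPKM, and no neighbours in this order overlapped. The receptors Fgfr1 to Fgfr3 are expressed by neural progenitors, with Fgfr3 also a marker of astrocyte precursors. Fgfrl1 lacks the kinase domain.

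Fgfr3 was called higher in stress and had the smallest p of the set. It had 57.1, 57.5, 62.5 and 54.1 CPM in control F36, F37, M30 and M31. It had 67.8, 65.5, 65.8 and 67.5 CPM in stress F34, F35, M28 and M29. Each stressed brain was above each control brain, and the control male M30 was the closest of the controls. The means were 57.8 ± 3.50 and 66.7 ± 1.17 CPM (SD, n = 4 each), with a Log2FC of 0.21 (SE 0.04, 95% interval 0.13 to 0.29, adjusted p = 0.000662, edgeR's quasi-likelihood test). The call was kept in all 8 fits that left out a brain and in all 5 other fits, with a Log2FC between 0.17 and 0.25.

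The other receptors were not called. Fgfr1 had a Log2FC of 0.01 (95% interval -0.05 to 0.08), with 115 to 122 CPM in control and 113 to 125 CPM in stress. Fgfr2 had 0.06 (-0.02 to 0.14), Fgfrl1 0.10 (-0.06 to 0.26) and Fgfr4, at 0.967 to 1.67 CPM, -0.24 (-0.63 to 0.14). In the summed RPKM of Fgfr1 to Fgfr4, Fgfr3 took 31.6% to 33.2% in control and 34.5% to 35.96% in stress, and Fgfr1 took 46.9% to 48.6% and 45.1% to 46.4%. The ratio of Fgfr3 to Fgfr1, which does not depend on library scaling, was 0.650 to 0.708 in control and 0.745 to 0.797 in stress.

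**Figure D3:**
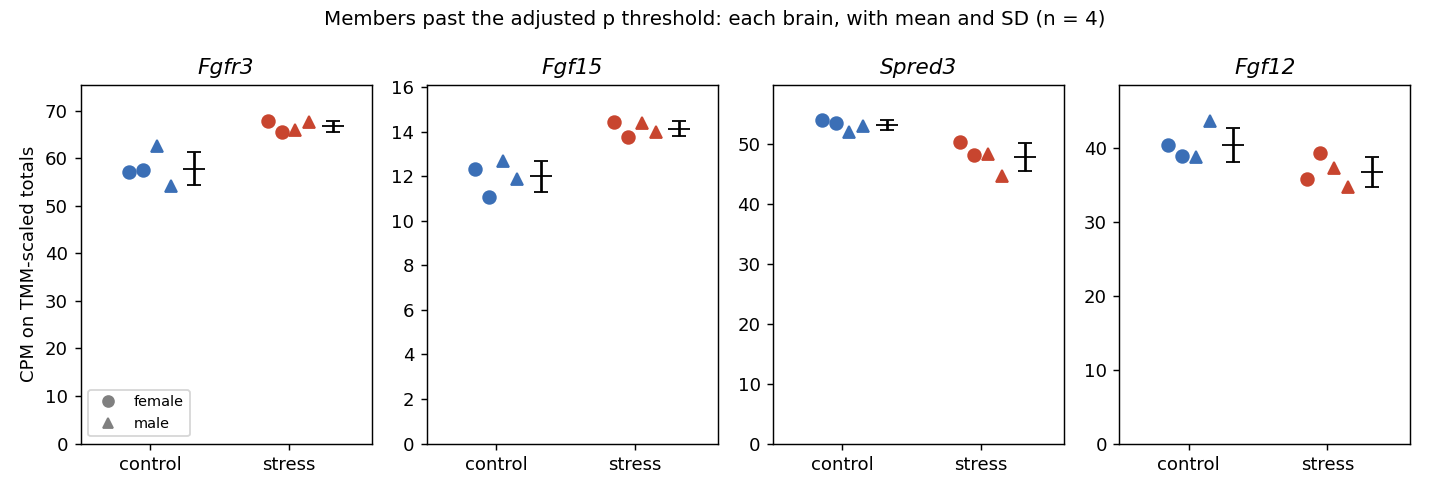
CPM of Fgfr3, Fgf15, Spred3 and Fgf12 in each of the 8 brains (vertical axis from 0), control in blue and stress in red, females as circles and males as triangles, with black bars for the mean and SD (n = 4). The groups do not overlap for Fgfr3, Fgf15 and Spred3, and they overlap for Fgf12.

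Fgfr3 lies on mm10 chromosome 5, 33721674 to 33737068, plus strand. Of its exon bases, 13.9% were shared with G630022F23Rik, a minus-strand gene with 40 to 45 counts in control and 45 to 64 in stress, against 1538 to 1955 counts of Fgfr3. The Log2FC of G630022F23Rik was 0.34 (SE 0.15, adjusted p = 0.154, edgeR's quasi-likelihood test). On scaled totals, each stressed brain was above each control brain for this gene. The effect of the shared bases on the Fgfr3 counts was not tested. RefSeq holds 2 promoter windows for Fgfr3. The upstream window is shown, chr5:33721474-33721773 of GRCm38.p6 on the plus strand, since it covers the annotated start of the gene called with the smallest p, and the capitals mark an inverted CCAAT box.
Fgfr3: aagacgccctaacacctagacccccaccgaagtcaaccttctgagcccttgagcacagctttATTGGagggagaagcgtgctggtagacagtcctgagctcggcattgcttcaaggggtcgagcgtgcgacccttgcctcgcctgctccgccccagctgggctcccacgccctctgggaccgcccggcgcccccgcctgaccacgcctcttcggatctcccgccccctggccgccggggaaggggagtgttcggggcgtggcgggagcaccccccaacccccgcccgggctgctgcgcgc

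The CCAAT box begins 188 bases before the start, and 69.7% of the bases in this window are G or C, against a median of 52.7% over all 32851 RefSeq promoter windows. A CCAAT box on either strand was held by 14 of the 38 windows matched to FGF genes and by 37.4% of all windows. Of the 38 genes, 29 had at least 1 window, and Etv4, Fgf1, Fgf8, Fgf15, Fgf16, Fgf17, Fgf20, Fgfr1 and Spry4 had none matched.

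The feedback inhibitors were led by Spred1 at 15.2 ± 0.50 RPKM in control. Spry2 (9.30 to 10.9 RPKM) and Spred2 (9.94 ± 0.19 RPKM) overlapped. Below them came Spred3 at 8.55 ± 0.13, Dusp6 at 7.05 ± 0.42, Spry1 at 4.57 ± 0.29, Il17rd at 1.98 ± 0.10 and Spry4 at 1.66 ± 0.13 RPKM, each apart from its neighbours. Of the exon bases of Spry1, 24.4% were shared with the minus-strand gene Gm42922, and pairs in shared bases were left uncounted. The effect on the Spry1 level was not tested. Sprouty proteins act upstream of Raf, Spred proteins recruit neurofibromin to Ras, and Dusp6 removes phosphate from ERK.

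Spred3 was the 1 of 8 feedback inhibitors that was called, and it was lower. It had 54.0, 53.5, 52.0 and 53.1 CPM in control F36, F37, M30 and M31. It had 50.3, 48.2, 48.3 and 44.7 CPM in stress F34, F35, M28 and M29. The highest stressed brain was below the lowest control brain. The means were 53.2 ± 0.84 and 47.9 ± 2.34 CPM (SD, n = 4 each), with a Log2FC of -0.15 (SE 0.04, 95% interval -0.23 to -0.07, adjusted p = 0.00705, edgeR's quasi-likelihood test). The call was kept in all 8 fits that left out a brain, with an adjusted p of 0.0491 at most, and in the 5 other fits.

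Spred1 and Spred2 had narrow intervals about 0, with a Log2FC of 0.02 (-0.05 to 0.08) and -0.02 (-0.10 to 0.05). Spred3 lies on chromosome 7, 29158829 to 29170411, minus strand, and its RefSeq window is chr7:29168598-29168897. This window lies inside the gene and does not cover the annotated start at 29170411. It is shown because it holds the octamer TGAATGAA, the core site of Capicua (CIC), a repressor that ERK relieves. The octamer is marked in capitals and begins 10 bases before the RefSeq start.
Spred3: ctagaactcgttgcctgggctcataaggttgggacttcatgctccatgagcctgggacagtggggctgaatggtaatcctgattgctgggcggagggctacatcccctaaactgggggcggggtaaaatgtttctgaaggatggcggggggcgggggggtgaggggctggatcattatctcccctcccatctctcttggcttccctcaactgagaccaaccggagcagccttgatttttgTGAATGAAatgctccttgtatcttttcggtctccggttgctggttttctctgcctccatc

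The octamer was held by 1.30% of all windows (428 of 32851, either strand), and by those of Spred3 and Fgf21 in this set. The ETS core CCGGAAGT was held by 3.89% of all windows and by that of Fgfrl1. These matches describe the letters in the windows and show no binding.

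The other inhibitors did not pass the adjusted threshold. Spry4 was at 6.89 to 8.19 CPM in control and 4.997 to 7.11 CPM in stress (Log2FC -0.26, SE 0.10, adjusted p = 0.0796), Spry1 at 12.5 to 14.0 and 11.2 to 12.7 CPM (-0.16, SE 0.07, adjusted p = 0.119), and Spry2 had a Log2FC of -0.11 (95% interval -0.23 to 0.00). Il17rd had a Log2FC of 0.11 (SE 0.05, adjusted p = 0.151). The classical ERK readout Dusp6 had 20.8 to 23.4 CPM in control and 20.6 to 22.2 CPM in stress, with a Log2FC of -0.04 (95% interval -0.14 to 0.06).

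Of the 3 ETS factors, 0 were called by edgeR or by DESeq2, and 2 had an unadjusted p under 0.05 by each. Etv5 was the highest at 7.46 ± 0.17 RPKM, and Etv1 (3.71 ± 0.20) and Etv4 (3.34 ± 0.30 RPKM) overlapped. Etv4 was at 9.40 to 11.5 CPM in control and 7.74 to 9.45 CPM in stress, with a Log2FC of -0.21 (SE 0.07, adjusted p = 0.058). Etv1 had a Log2FC of -0.10 (SE 0.04, adjusted p = 0.125) and Etv5 of -0.04 (95% interval -0.13 to 0.04). The combined count at an unadjusted p under 0.05 was 11 of the 32 genes, 8 of them lower and 3 higher, against 26.9% of all genes tested (13.7% lower and 13.2% higher).

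Genes around the FGF core are read against the 13.8% of all genes called by edgeR and the 9.29% called by DESeq2. Of 20 tested extracellular modulators, 3 were higher and 1 lower. Fgfbp3, which releases FGFs from the matrix, had a Log2FC of 0.16 (SE 0.04, adjusted p = 0.0117), and the heparan sulfate proteoglycans Gpc4 and Gpc1 had 0.21 and 0.09 (adjusted p = 0.0166 and 0.0294). The proteoglycan Sdc3 was lower, at -0.11 (SE 0.03, adjusted p = 0.00756). Of 15 heparan sulfate enzymes, 0 were called by edgeR or by DESeq2, with 2 and 1 at an unadjusted p under 0.05.

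Of 29 adaptors and Ras-ERK genes, 3 were lower and 0 higher by edgeR, with 4 in each direction at an unadjusted p under 0.05, and DESeq2 called 2 lower and 0 higher. Map2k1, which encodes the kinase MEK1, had 39.7 to 43.9 CPM in control and 34.4 to 36.8 CPM in stress (Log2FC -0.22, SE 0.04, adjusted p = 0.000703). Ksr1, the scaffold that holds MEK and ERK, had 34.8 to 36.2 and 26.9 to 31.9 CPM (-0.24, SE 0.05, adjusted p = 0.00087). Hras had a Log2FC of -0.11 (adjusted p = 0.0351). In all 3 genes each stressed brain was below each control brain. Groups did not overlap for 4 of the 29 genes on the lower side and 2 on the higher, against 16.4% of all genes. The median Log2FC of the 29 genes was -0.01.

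Of 19 ERK phosphatases and ERK-responsive genes, 3 were higher and 3 lower by edgeR, and DESeq2 called 2 higher and 2 lower. The transcription factor genes Fosl2 (-0.38, SE 0.06), Myc (-0.24, SE 0.05) and Junb (-0.39, SE 0.13) were lower. Dusp4, a nuclear ERK phosphatase, was higher at 0.11 (SE 0.03), as were the cell cycle gene Ccnd1 at 0.13 (SE 0.04) and Cnpy1 at 0.23 (SE 0.06). The median Log2FC of the 19 genes was -0.07.

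The study included both sexes, and the stress effect was also estimated in each sex, 2 stressed against 2 control brains, with the spread shared over all 8. In females 1 of the 32 genes was called, Fgfr3, against 3.92% of all genes. In males Fgfr3 and Spred3 were called, against 6.8% of all genes. Fgfr3 had a Log2FC of 0.22 (SE 0.06, adjusted p = 0.0251) in females and 0.19 (SE 0.05, adjusted p = 0.0307) in males. Spred3 had -0.13 (SE 0.05) in females and -0.18 (SE 0.05) in males. DESeq2 called 0 FGF genes in either sex, against 1.63% of all genes in females and 2.82% in males. It had 3 FGF genes at an unadjusted p under 0.05 in each sex.

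No difference between the sexes was called in the 32 genes. The female-minus-male difference in Log2FC was 0.02 for Fgfr3 (95% interval -0.14 to 0.18), 0.06 for Fgf15 (-0.20 to 0.32), 0.05 for Spred3 (-0.10 to 0.20) and 0.12 for Fgf12 (-0.07 to 0.30). The edgeR interaction test called 0 FGF genes (0.0056% of all genes), 1 at an unadjusted p under 0.05, and DESeq2 called 0 and had 0 at that level. That gene was Fgf2, with a difference of -0.68 (SE 0.25, adjusted p = 0.647). The female and male Log2FC had the same sign for 28 of the 32 genes.

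**Figure D4:**
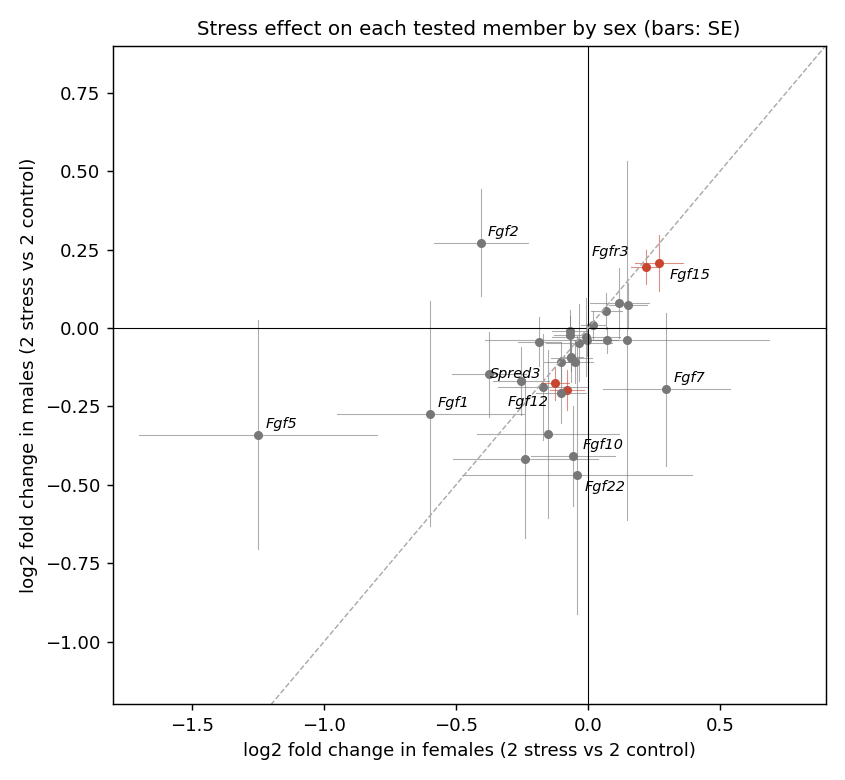
Log2 fold change (stress vs. control) of each tested FGF pathway gene in females (horizontal axis) and in males (vertical axis), with bars for the SE, red for the genes called over all 8 brains and a dashed line for equality. Fgfr3 and Fgf15 lie near the line in the upper right, and Fgf2 is in the upper left.

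Markers of some other cell populations moved between the same groups. These counts are read against the 13.8% of all genes called by edgeR and the 9.29% called by DESeq2. The groups did not overlap for 16.4% of all genes tested. By edgeR, 0 were called of 5 microglia, 4 mural cell, 6 hindbrain and 3 pituitary markers tested. Of 5 erythroid markers 1 was lower. Of 5 ventral telencephalon markers 1 was higher, as were 2 of 4 hypothalamus and 1 of 6 midbrain and isthmus markers (0, 0 and 1 by DESeq2). Of 10 radial glia markers, 5 were higher and 0 lower (sum 1616 to 1715 CPM in control, 1649 to 1782 CPM in stress). The groups stood apart in 1 of the 10, the median Log2FC was 0.05, and DESeq2 called 3 higher. Of 8 cycling-cell markers, 7 were higher, with groups apart in all 7 (572 to 613 and 640 to 733 CPM), and Mki67 had a Log2FC of 0.21 (SE 0.03). Of 5 intermediate progenitor markers 4 were higher. DESeq2 called 7 of the cycling-cell and 3 of the intermediate progenitor markers higher. Of 6 astrocyte markers 2 were lower (Aqp4 and Gfap), as were 2 of 5 oligodendrocyte precursor markers and 3 of 5 endothelial markers. DESeq2 called 1, 2 and 1 of these lists lower, in the same order. Dorsal telencephalon markers were higher in 4 of 5 by edgeR and by DESeq2 (804 to 849 and 867 to 918 CPM). Of 6 meningeal markers tested, 3 collagen genes were higher, and DESeq2 called 0 of the 6, with 2 at an unadjusted p under 0.05. Of 4 choroid plexus markers tested, Ttr and Otx2 were higher, DESeq2 called 1, and the median Log2FC of the 4 was -0.01, with -0.20 for Folr1 and -0.37 for Kl. Ttr overlapped between the groups, at 0.564 to 6.95 CPM in control and 0.656 to 29.9 CPM in stress, the highest being in F34. Without M28, the brain with the highest meningeal sum, Fgfr3, Fgf15 and Spred3 remained called, Fgf12 was lost (adjusted p = 0.0707) and Etv4 was gained (adjusted p = 0.02, edgeR). The part of these populations in the Fgfr3, Fgf15 and Spred3 results was not tested.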

How the data were processed

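RNA of 8 E15.5 brains was sequenced by the authors as paired reads, cleaned with Trim Galore, aligned to mm10 with TopHat2 2.1.1 and counted on GENCODE M20 exons with featureCounts 1.6.3, in read pairs and without regard to strand. The deposited values are raw counts per gene, with no normalization by the authors. Pairs on exons of 2 genes are left uncounted by the default of that tool. Symbols were matched for 54723 of 54752 rows with GENCODE of the same build.

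Genes were kept by filterByExpr (minimum count 10, by group), scaled by TMM and tested over all genes with edgeR 4.0.16 (glmQLFit, glmQLFTest, R 4.3.3), with sex and condition in the model and Benjamini-Hochberg adjustment over all genes tested. Calls were made below an adjusted p of 0.05. The SE is the absolute Log2FC divided by the square root of F. Sexes were compared in a model with 1 mean per sex and condition. The study's model also held batch, which the sources used here do not name for these libraries. DESeq2 1.42.0, other scalings, no filter, no sex covariate, each sex alone and each brain left out in turn were tried. All genes of the set are accounted for, those called with full statistics. Genes outside it were named only where called in a pathway list, or as markers. The scripts were tested on simulated data. Genes and lists were chosen with earlier results of these data known. The p-values measure the spread between brains of a litter. With 4 brains against 4, an exact two-sided permutation test could give no p below 0.0286.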

Additional observations from a re-analysis of the deposited data

Results flagged for a closer look

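In 5 of 64 groups of 4 brains, the highest or the lowest brain stood far from the other 3 by Dixon's test, which chance does in about 1 group in 20. High values were seen for Fgf1 in control F37 (0.987 CPM), Fgf17 in control M30 (2.03 CPM), Fgf7 in stress F35 (2.09 CPM) and Il17rd in control M31 (23.4 CPM), and a low value for Fgf14 in stress M29 (18.7 CPM).

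Fgf2 moved in opposite directions in the sexes. Females had 2.80 and 3.21 CPM in control and 2.17 and 2.37 CPM in stress, and males had 2.72 and 2.43 CPM in control and 3.24 and 2.97 CPM in stress. The female-minus-male difference in Log2FC was -0.68 (95% interval -1.19 to -0.17, unadjusted p = 0.0112 and adjusted p = 0.647 by edgeR's interaction test), so it did not pass the correction over all genes. Of the exon bases of Fgf2, 13.2% were shared with other genes, among them Nudt6 on the other strand.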

How the results depend on the processing

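The direction of Fgfr3, Fgf15, Spred3 and Fgf12 was kept under all 13 alternatives run on the comparison of 4 with 4 brains. The count of FGF genes called lower, 2 in the full fit, was 1 with DESeq2, 1 without the sex covariate and 3 without the filter, where Spry4 was gained (adjusted p = 0.0457), and ran from 1 to 5 with a brain left out. It was 5 without the stressed female F35, where Etv1, Fgf13 and Spry4 were called besides Spred3 and Fgf12. The share of all genes called was 13.8% in the full fit, 9.29% with DESeq2, 12.2% without the sex covariate and 7.02% without the filter. It ran from 8.82% to 13.1% with a brain left out, the highest being without F35. The count of FGF genes called higher ran from 1 to 2, and it was 1 without control F37. In females the count called higher was 0 with DESeq2 and ran from 0 to 1 with a brain left out, and the count called lower ran from 0 to 1. In males the count called higher was 0 with DESeq2 and ran from 0 to 1. The count called lower in males was 0 with DESeq2, 2 without the filter and 2 in males alone, and ran from 0 to 2 with a brain left out. Genes not called whose sign changed when a brain was left out were Fgf9 (Log2FC -0.116 to 0.0277), Spred1 (-0.0198 to 0.0324), Fgfr1 (-0.0165 to 0.0401), Fgf2 (-0.153 to 0.0549), Fgf7 (-0.11 to 0.15), Fgf3 (-0.0718 to 0.0249) and Fgf23 (-0.18 to 0.39). Over all genes, calls were 1160 higher and 1298 lower, and 748 and 911 with DESeq2. Leaving out a brain gave as few as 736 and 854, without stress M29. Within 1 sex, DESeq2 called 1.63% of all genes in females and 2.82% in males. By edgeR the share in males was 4.07% without the filter and 8.49% in males alone. The causes were not tested. Depth limits Fgf5, Fgf8, Fgf22 and Fgf23, which had under 25 counts in each library. No paired analysis was possible because the labels give no replicate numbers shared between the groups.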
